A study of Mus musculus with 6 samples.

Results

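Isx, Bco1, Scarb1 and Pkd1l2 were followed in sorted epithelial cells of the mouse small intestine, as 4 genes of the 51912 listed in the deposited tables. Isx was chosen with its known targets Bco1 and Scarb1, and Pkd1l2 was added because it lies beside Bco1. All 4 were picked with their levels in these libraries already known, so those levels and the fold changes between groups are given as a description. The all-gene tests were run over them too, and nothing is read from those calls. Libraries came from C57BL/6 mice kept in 3 ways. Antigen-free (AF) mice were spared foreign antigens of both microbiota and food. Germ-free (GF) mice lacked a microbiota, and specific pathogen free (SPF) mice lacked only certain pathogens. Each group had 2 libraries, AF replicates 2 and 3, GF replicates 1 and 3, and SPF replicates 3 and 4. The series asks how antigens in the diet bear on antigen presentation by this epithelium. The sources used here give neither the composition of the diets nor the age and number of the mice, so other differences of diet cannot be told apart from the absence of food antigens. Separate animals are not stated for the samples of a group, so any p-value below measures only the spread between these samples, which may be technical.

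ISX is a homeobox transcription factor of the intestine that holds down the genes for carotenoid uptake and cleavage, and retinoic acid made from the diet switches Isx on. BCO1 cleaves beta-carotene into retinal, the parent of retinol and retinoic acid, and SR-BI, the product of Scarb1, takes carotenoids and other lipids into the enterocyte. Through this loop vitamin A in the diet is known to limit the uptake of its own precursor. Pkd1l2 encodes a large membrane protein of the polycystin family, and no place in this loop is claimed for it here.

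The libraries held 16109488 to 19417054 expected counts, RSEM's estimate of the reads from each gene, and 13644 genes had enough counts to be tested. Levels between libraries are given as CPM, counts scaled to a fixed library total after TMM normalization, and 3 counts were worth 0.109 to 0.236 CPM. Levels between genes are given as TPM, which also divides by transcript length. None of the 6 epithelial markers was at 0 in any library, and their sum was 4706 to 5012 CPM in AF, 4947 to 5336 CPM in GF and 4259 to 4816 CPM in SPF. The libraries differed in other cells: 9 T cell and intraepithelial lymphocyte markers summed to 11.9 to 15.3 CPM in AF, 31.5 to 304 CPM in GF and 68.6 to 182 CPM in SPF. Markers of tuft cells, 6 in number, were highest in both AF libraries, at 148 and 146 CPM in AF, 70.0 and 98.0 CPM in GF, and 49.8 and 13.5 CPM in SPF, and the part of these cells in the results was not tested. Goblet cell markers, 7 in number, summed to 12685 to 14010 CPM in AF and 11908 to 16867 CPM in GF, and to 29154 and 2805 CPM in SPF replicates 3 and 4. SPF replicate 4 was also poor in crypt RNA, with 48.1 CPM over 7 stem cell markers against 370.5 CPM in SPF replicate 3, 170 to 232 CPM in AF and 182 to 489 CPM in GF. Y-linked genes such as Ddx3y had no counts in either SPF library and were present in the other libraries, so in both comparisons with SPF the group cannot be told apart from sex. The libraries of each group also share a date-like mark of their own, and what was done on that date is not given.

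Isx (ENSMUSG00000031621, chromosome 8, 74873173 to 74893506 on the forward strand of GRCm38) is the repressor of the loop. It had 17 and 14 expected counts in AF, against 2226 and 1208 counts in GF and 1560 and 1383 counts in SPF. On the scaled totals these were 1.34 and 0.832 CPM in AF, 81.1 and 82.0 CPM in GF, and 71.4 and 94.9 CPM in SPF. Both AF libraries lay far below all others, and the GF and SPF libraries overlapped. Counting error alone put the AF counts between 9.90 and 27.2 (replicate 2) and between 7.65 and 23.5 (replicate 3; exact Poisson intervals at 95%), so Isx was low but above a floor of 3 counts. The mean level was 1.08 ± 0.356 CPM in AF, 81.6 ± 0.573 CPM in GF and 83.1 ± 16.6 CPM in SPF (SD, n = 2 libraries each). In TPM it was 0.545 ± 0.0778 in AF, 59.7 ± 23.8 in GF and 56.7 ± 7.61 in SPF, so the GF libraries were not as close in TPM. The log2 fold change was -6.25 (SE 0.34) in AF versus GF and -6.27 (SE 0.34) in AF versus SPF, both of which use the same AF libraries. The GF versus SPF value was -0.03 (SE 0.25), a difference smaller than the spread between the SPF libraries. Among genes with a TPM above 0, Isx ranked 11588 of 17328 and 12734 of 18010 in the AF libraries, and between 1215 and 1460 in the other libraries. In a bulk sample, fewer cells that express a gene and less RNA per cell cannot be told apart.

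Bco1 (ENSMUSG00000031845, chromosome 8, 117095854 to 117133720 on the forward strand) encodes the enzyme that cleaves beta-carotene. It had 14635 and 15144 expected counts in AF, against 177 and 318 counts in GF and 87 and 140 counts in SPF. In CPM this was 1149 and 899.9 in AF, 6.45 and 21.6 in GF, and 3.98 and 9.60 in SPF. The AF libraries stood far above all others. The GF and SPF libraries overlapped, GF replicate 3 being the highest of them. The log2 fold change was 6.20 (SE 0.82) in AF versus GF, 7.24 (SE 0.86) in AF versus SPF and 1.04 (SE 0.67) in GF versus SPF. At 383 and 398 TPM, Bco1 was the 130th and the 169th most abundant gene in AF replicates 2 and 3. It was at 4.50 and 8.38 TPM in GF and 2.57 and 3.82 TPM in SPF, at ranks between 4924 and 9732.

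Scarb1 (ENSMUSG00000037936, chromosome 5, 125277087 to 125341094 on the reverse strand) encodes the uptake receptor. It lies on another chromosome than the other members and had 9301 and 9386 expected counts in AF, against 181 and 239 in GF and 209 and 451 in SPF. Its levels were 730.5 and 558 CPM in AF, 6.60 and 16.2 CPM in GF, and 9.57 and 30.9 CPM in SPF. Again both AF libraries were the highest, without overlap, while the GF and SPF libraries overlapped. The log2 fold change was 5.83 (SE 0.79) in AF versus GF, 4.99 (SE 0.76) in AF versus SPF and -0.83 (SE 0.66) in GF versus SPF. In AF libraries Scarb1 stood at 227 and 230.0 TPM, against 4.26 and 5.78 TPM in GF and 5.69 and 11.3 TPM in SPF.

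Pkd1l2 (ENSMUSG00000034416, chromosome 8, 116995679 to 117082449 on the reverse strand) starts 13404 bases from the start of Bco1, and the genes are read away from each other. It had 448 and 476 expected counts in AF, against 1 and 1 in GF and 1 and 3 in SPF. These were 35.2 and 28.3 CPM in AF, 0.0365 and 0.0678 CPM in GF, and 0.0458 and 0.206 CPM in SPF. The AF libraries were again apart, and no GF or SPF library passed 3 counts. With so few reads the contrast is given as a ratio of pooled counts on the scaled totals. The AF over GF ratio was 659 (182 to 5450 at 95%, 924 against 2 counts), and the AF over SPF ratio was 285 (111 to 1047, 924 against 4 counts). The GF over SPF ratio was 0.432 (0.0391 to 3.01, 2 against 4 counts). These intervals cover counting error only. Even in AF, Pkd1l2 stayed at 5.43 and 5.66 TPM, far below Bco1 and Scarb1.

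**Figure D1:**
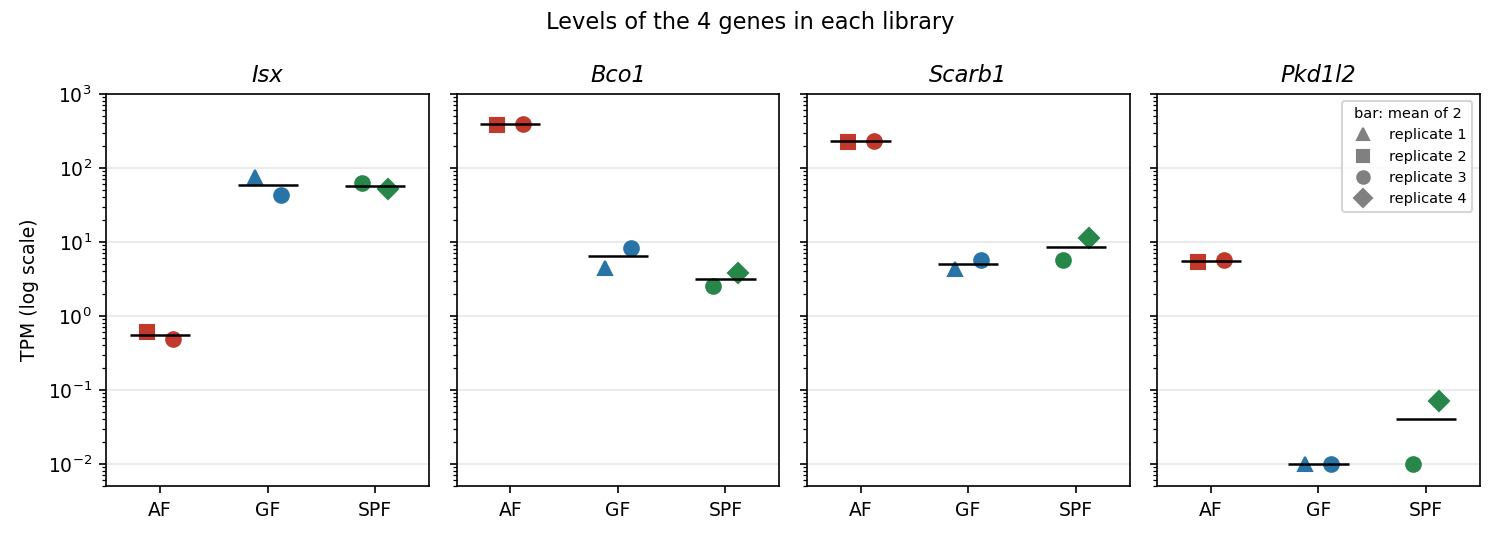
Level of each gene in TPM on a log scale, a point for each library and a bar for the mean of the 2 libraries of a group. Isx lies at 0.49 to 0.6 TPM in AF and at 42.9 to 76.5 TPM in the other libraries, and Bco1, Scarb1 and Pkd1l2 are highest in both AF libraries.

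RSEM's posterior standard deviation was at most 0.0893% of the count for any of the 4 genes in any library, so few of their reads were shared with other genes by its estimate. Strand is a separate matter for Pkd1l2. The antisense gene Gm15395 (chromosome 8, 117036497 to 117043639, forward strand) lies within its body and had 1.09 and 1 counts in AF and none in GF or SPF. The sources used here do not give the strand setting, so reads from the overlap cannot be assigned to either strand. The isoform-weighted length that RSEM gave for Pkd1l2 was 4844 and 4946 bases in AF. That is shorter than the annotated full-length transcripts of 7386 and 7389 bases in 43 exons, and longer than the annotated retained-intron transcripts of 1107 and 1716 bases. By RSEM's estimate, part of the AF level of Pkd1l2 thus belonged to the retained-intron transcripts. The length was 7386 bases in GF and SPF replicate 3 and 2643 bases in SPF replicate 4, each resting on 1 to 3 counts. Isx had a weighted length of 1793 bases in AF and 1766 to 1781 bases in the other libraries, and Bco1 stayed at 2337 to 2338 bases throughout. Scarb1 lay at 2492 to 2499 bases in AF and 2510 to 2529 bases elsewhere, so the lengths of these 3 genes hardly differed between groups.

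The promoters of Bco1 and Pkd1l2 are shown because these neighbours are read apart and were both high in AF. They come from RefSeq on GRCm38.p6, in which 3 of the 4 genes had an entry, and each ends at the base before the earliest RefSeq start. Capitals mark matches, on either strand, to TAAT, the core letters of homeobox binding sites, to AGGTCA, the unit bound by nuclear receptors, and to TATAAA.
Bco1, chr8:117095615-117095850, forward strand: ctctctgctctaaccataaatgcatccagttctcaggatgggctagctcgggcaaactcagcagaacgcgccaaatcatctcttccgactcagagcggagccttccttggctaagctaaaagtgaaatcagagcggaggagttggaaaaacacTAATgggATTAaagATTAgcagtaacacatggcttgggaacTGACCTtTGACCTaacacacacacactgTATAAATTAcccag
Pkd1l2, chr8:117082450-117082699, reverse strand: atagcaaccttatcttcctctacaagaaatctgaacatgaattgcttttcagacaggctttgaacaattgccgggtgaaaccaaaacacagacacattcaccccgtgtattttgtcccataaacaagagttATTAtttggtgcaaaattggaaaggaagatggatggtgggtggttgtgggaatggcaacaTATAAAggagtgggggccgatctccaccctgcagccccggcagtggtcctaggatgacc

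The Bco1 window held TAAT or its reverse ATTA at 4 places, starting at -83, -76, -69 and -9 from the earliest RefSeq start. The first 3 lie within a few bases of each other, and the last overlaps TATAAA at -14. TAAT was found in 54.9% of 32851 promoter windows of 250 bases, so its presence is common. Between -42 and -30 the Bco1 window held AGGTCANAGGTCA on the reverse strand, a pair of units a single base apart, in the arrangement bound by dimers such as PPAR with RXR and by HNF4. That motif was in 0.0335% of the windows, 11 in number. The Pkd1l2 window held ATTA at -119 and TATAAA at -59, the TATAAA letters being in 12.4% of all windows, and no AGGTCA, which 14.0% of windows held. TAATTA (4.84% of windows), TAATTG (7.17%) and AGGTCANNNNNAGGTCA (0.00913%) matched neither promoter. The Isx window had no match to any of these motifs. These matches are letters in the reference sequence, and no binding was measured.

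In AF versus GF, edgeR's quasi-likelihood test with Benjamini-Hochberg adjustment called 0.0147% of the 13644 genes, and the 2 genes so called were Isx (lower in AF, as were 0.00733% of genes) and Pkd1l2 (higher in AF, also 0.00733%). In AF versus SPF it called 0.044% of genes, 6 in all, of which 0.0293% of genes were higher and 0.0147% lower, and 2 of the 4 members were among them, again Isx lower and Pkd1l2 higher. Without any single AF or GF library, no member was called in either comparison. In GF versus SPF it called 0.0147% of genes and 0 of the 4 members. Nothing is read from these counts, the genes having been chosen on the same contrasts. The edgeR test did not call Bco1 or Scarb1 in either comparison, beside standard errors of 0.76 to 0.86 on the log2 scale. Their GF libraries, and their SPF libraries, differed more than 2-fold in CPM within a group, and less than 2-fold in TPM. With library totals in place of TMM, edgeR called both genes in both comparisons. All 4 members had AF libraries apart from both GF libraries, as had 33.6% of all tested genes (15.8% with AF higher, 17.8% with AF lower). They were also apart from both SPF libraries, as were 44.6% of genes (22% higher, 22.6% lower). All 4 overlapped between GF and SPF, where 33.8% of genes did not.

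The genes were chosen for large differences, and their places in a ranking by size only describe that choice. Of 9018 genes with a mean of at least 5 CPM, Bco1 had the 3rd and Scarb1 the 4th highest log2 fold change in AF versus GF, and Isx the 2nd lowest. In AF versus SPF, which shares the AF libraries, the places from the top were 5 for Bco1 and 7 for Scarb1, and Isx was 6th from the bottom. Isx, at 1.34 and 0.832 CPM in AF, passed the limit of 5 CPM through its GF and SPF libraries alone, which limits its places further. No place is given for Pkd1l2, which passed the limit of 5 CPM through its AF libraries alone and rests on 1 to 3 counts in each other library.

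**Figure D2:**
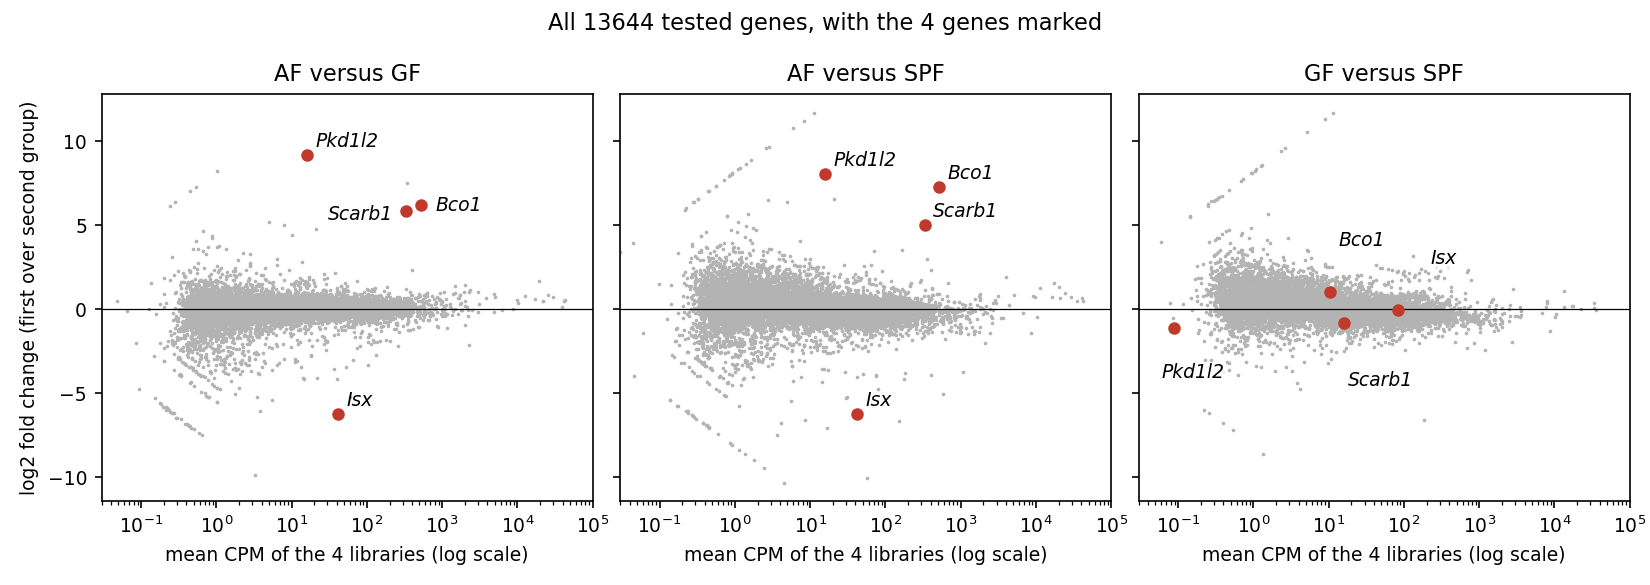
Log2 fold change of each tested gene against its mean CPM (log scale) over the 4 libraries compared, for AF versus GF, AF versus SPF and GF versus SPF, with the 4 genes in red. Isx lies at -6.25 and -6.27 and the other 3 genes above 4.9 in the AF panels, while all 4 lie between -1.13 and 1.04 in GF versus SPF.

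Per length, the order of Isx and its targets was turned round between AF and the other groups. Bco1 TPM was 639 and 811 times Isx TPM in AF, 0.0588 and 0.195 times in GF, and 0.0414 and 0.0744 times in SPF. The balance of enzyme to receptor moved much less, Bco1 over Scarb1 TPM being 1.69 and 1.73 in AF, 1.06 and 1.45 in GF, and 0.452 and 0.338 in SPF. In both AF libraries and GF replicate 3 Bco1 was above Scarb1, and in both SPF libraries it was below. In GF replicate 1 the genes were nearly level, at 4.50 TPM for Bco1 and 4.26 TPM for Scarb1. Their counts there were 177 (152 to 205) and 181 (156 to 209; exact Poisson intervals at 95%), so that order lay within counting error. In TPM the members ran Bco1, Scarb1, Pkd1l2, Isx from high to low in AF. In the GF and SPF libraries Isx came first and Pkd1l2 last.

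Enterocyte RNA itself varied between libraries. The 13 brush-border markers summed to 31539 and 23821 CPM in AF, 23282 and 35640 CPM in GF, and 30250 and 62280 CPM in SPF, with overlap between all groups. As a percentage of that sum, Isx was 0.00423 and 0.00349 in AF, against 0.349 and 0.230 in GF and 0.236 and 0.152 in SPF. Bco1 was 3.64 and 3.78% of it in AF, 0.0277 and 0.0605% in GF, and 0.0132 and 0.0154% in SPF. Scarb1 was 2.32 and 2.34% in AF, 0.0283 and 0.0455% in GF, and 0.0316 and 0.0497% in SPF. Pkd1l2 was 0.112 and 0.119% in AF, 0.000157 and 0.000190% in GF, and 0.000151 and 0.000330% in SPF. Relative to enterocyte markers, too, the AF libraries lay apart from the others without overlap, and they lay closer to each other than in CPM. For Isx the GF libraries, and the SPF libraries, lay further apart from each other than in CPM. The marker sum includes Anpep, which was lowest in both AF libraries, and Sis and Mgam, which were higher in AF than in GF. Markers of the proximal small intestine, where carotenoid uptake is known to be strongest, summed to 3503 and 2832 CPM in AF, 3234 and 4022 CPM in GF, and 4298 and 8473 CPM in SPF. Those of the distal part summed to 1318 and 906 CPM in AF, 1997 and 1127 CPM in GF, and 1063 and 1133 CPM in SPF. The AF libraries overlapped GF and lay below both SPF libraries for proximal markers, and overlapped both groups for distal markers. The part of region, and of the lymphocyte and crypt RNA above, in the results was not tested.

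Genes beside the members were examined to see how far along the chromosome the contrasts reached. Within 250 kb of Bco1, 5 of 8 other genes were tested, and none was called in any comparison by edgeR. Over all genes edgeR called 0.0147% in AF versus GF, 0.044% in AF versus SPF and 0.0147% in GF versus SPF. It did not call Bco1 either, so the lack of calls among so few neighbours cannot show how far the contrasts reached. The median log2 fold change of these neighbours was 0.03 in AF versus GF, against -0.02 over all genes. Gcsh, a gene of glycine cleavage beyond Pkd1l2, was at 13.6 and 19.4 CPM in AF, 21.5 and 10.7 CPM in GF, and 16.03 and 9.40 CPM in SPF, with overlap between all groups. Gm20694, a processed pseudogene inside the body of Bco1 that was too low to test, had 0.393 and 0.475 CPM in AF, 0.0365 and 0 CPM in GF, and 0 CPM in both SPF libraries, so its few reads were highest where Bco1 was. Around Isx 4 of 7 genes were tested and around Scarb1 6 of 13, and edgeR called none, with the same limit. Their median log2 fold changes in AF versus GF were -0.09 and -0.18. Of these neighbours Hmox1, which encodes heme oxygenase, had the largest value, at 1.18 (SE 0.90) in AF versus GF with overlapping libraries. Atmin, Cenpn, Hmgxb4, Tom1, Mcm5, Gm32585, Bri3bp and Gm10382 lay between -0.83 and 0.15 in AF versus GF.

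**Figure D3:**
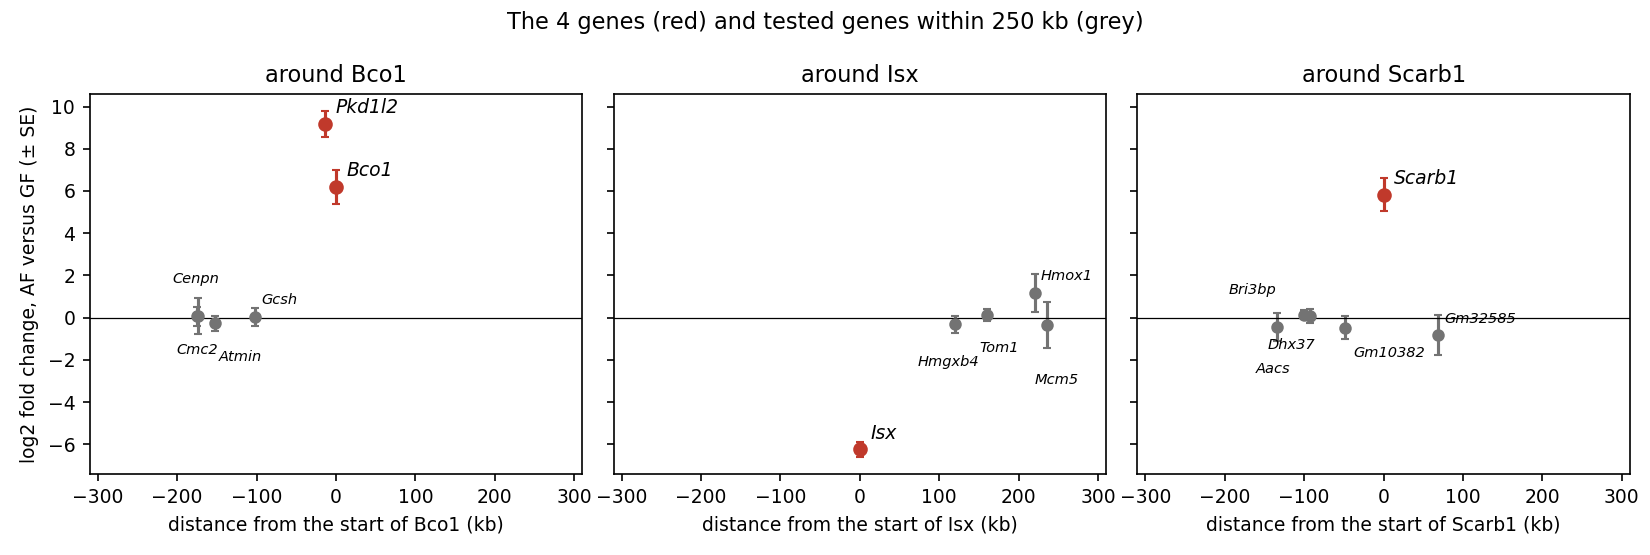
Log2 fold change in AF versus GF (± SE) against the distance in kb between gene starts, for the members (red) and other tested genes within 250 kb (grey). Bco1 and Pkd1l2 lie at 6.20 and 9.18 while the neighbours shown around them lie between -0.27 and 0.08. The Pkd1l2 value rests on 924 AF against 2 GF counts. Counting error alone put that AF over GF ratio between 182 and 5450, a width that the SE bar does not show.

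The rest of the carotenoid and retinoid pathway did not pass the test in any comparison. Of 43 listed genes in 3 lists, 33 were tested, and edgeR called 0 in AF versus GF, 0 in AF versus SPF and 0 in GF versus SPF. At an unadjusted p below 0.05 the numbers were 1 higher and 3 lower in AF versus GF, 3 higher and 7 lower in AF versus SPF, and 1 higher and 2 lower in GF versus SPF. Over all tested genes 3.6% reached that level in AF versus GF (1.52% higher, 2.07% lower), 11.3% in AF versus SPF (4.76% higher, 6.52% lower) and 6.71% in GF versus SPF (3.2% higher, 3.51% lower). DESeq2 called 2 of these genes in AF versus GF (Cd36 and Aldh1a1), 4 in AF versus SPF (Cd36, Aldh1a1, Aldh1a7 and Mttp) and 0 in GF versus SPF. Over all 13644 tested genes DESeq2 called 51, 272 and 80 in the same order. The median log2 fold change of the 33 genes was -0.10 in AF versus GF, -0.09 in AF versus SPF and -0.12 in GF versus SPF, against -0.02, 0.01 and 0.02 over all genes.

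Among 12 genes of carotenoid and sterol uptake and export, 6 had a positive and 6 a negative fold change in AF versus GF. Cd36, a scavenger receptor for fatty acids and carotenoids of the same family as Scarb1, was at 11.1 and 7.72 CPM in AF, against 32.4 and 36.1 CPM in GF and 22.2 and 35.4 CPM in SPF. Its AF libraries were the lowest, opposite to Scarb1, with log2 fold changes of -1.87 (SE 0.31) in AF versus GF and -1.62 (SE 0.31) in AF versus SPF, and it did not pass the edgeR test (adjusted p = 0.903 and 0.304). Both of those Cd36 contrasts were called by DESeq2, with adjusted p = 0.00301 and 0.00754. Abca1, which exports cholesterol, was at 18.7 and 12.5 CPM in AF, against 6.63 and 5.22 CPM in GF and 10.03 and 8.02 CPM in SPF. The AF libraries were the highest for Abca1, with a log2 fold change of 1.39 (SE 0.32) in AF versus GF that did not pass (edgeR adjusted p = 1). Mttp, which loads lipid onto chylomicrons, was at 716 and 603 CPM in AF, 1034 and 938 CPM in GF, and 1322 and 2404 CPM in SPF. For Mttp the order was AF below GF below SPF without overlap, and the AF versus SPF value of -1.50 (SE 0.43) did not pass (edgeR adjusted p = 0.389). Bco2, the other carotenoid-cleaving enzyme, was at 64.9 and 58.9 CPM in AF, 65.8 and 66.6 CPM in GF, and 72.1 and 101.6 CPM in SPF. Its log2 fold change in AF versus GF was -0.10 (SE 0.24), beside 6.20 for Bco1. Apob, the structural protein of chylomicrons, had the smallest p of the list in GF versus SPF, at -1.23 (SE 0.50; edgeR adjusted p = 0.738).

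Of 16 genes that handle retinol and retinal, 14 were tested, and none reached an unadjusted p below 0.05 in AF versus GF. Rbp2, the retinol carrier of enterocytes, was at 937 and 763 CPM in AF, 972 and 1307 CPM in GF, and 1412 and 2844 CPM in SPF. Its AF versus SPF value was -1.32 (SE 0.48; edgeR adjusted p = 0.400). Lrat, which stores retinol as esters, was at 15.0 and 16.04 CPM in AF, 16.5 and 16.8 CPM in GF, and 13.5 and 24.1 CPM in SPF. Lrat levels lay close together in AF and GF, both AF libraries being just below both GF libraries. The SPF libraries lay on either side of that range. Rbp4, a secreted retinol carrier, was at 9.66 and 14.6 CPM in AF, 5.40 and 9.70 CPM in GF, and 3.62 and 0.274 CPM in SPF. Stra6l, a relative of the retinol transporter gene Stra6, was at 12.3 and 11.5 CPM in AF, 11.2 and 8.14 CPM in GF, and 4.99 and 0.343 CPM in SPF. SPF replicate 4 was the lowest library for both. The AF versus SPF values of 2.59 (SE 0.97) for Rbp4 and 2.12 (SE 0.95) for Stra6l did not pass (edgeR adjusted p = 0.408 and 0.468). Enteroendocrine cell markers, 7 in number, were also lowest in SPF replicate 4, as were the goblet and stem cell markers above. Their sum was 2480 and 3271 CPM in AF, 1567 and 3892 CPM in GF, and 1360 and 337 CPM in SPF. The part of these cells in the values of Rbp4 and Stra6l was not tested. In AF versus GF the smallest p values of the list belonged to Adh4, at -0.87 (SE 0.47), and Retsat, which saturates retinol, at 0.67 (SE 0.42), both with an edgeR adjusted p = 1.

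Of 15 genes that form, break down or sense retinoic acid, 7 were tested. Aldh1a1, which turns retinal into retinoic acid, was at 47.6 and 40.6 CPM in AF, against 242 and 126 CPM in GF and 124 and 333 CPM in SPF. Its AF libraries were the lowest, as for Isx, with log2 fold changes of -2.06 (SE 0.55) in AF versus GF and -2.37 (SE 0.56) in AF versus SPF. It did not pass the edgeR test (adjusted p = 1 and 0.361), and DESeq2 called it in both, with adjusted p = 0.0474 and 0.00230. Aldh1a7, its close relative, was at 9.03 and 7.49 CPM in AF, 27.6 and 16.6 CPM in GF, and 20.6 and 56.7 CPM in SPF. Its values of -1.42 (SE 0.52) in AF versus GF and -2.22 (SE 0.53) in AF versus SPF did not pass either (edgeR adjusted p = 1 and 0.370). In GF versus SPF the smallest p values belonged to the receptor Rarg, at 1.37 (SE 0.58; edgeR adjusted p = 0.738), and to Aldh1a3, at 1.48 (SE 0.84; 0.748). Stra6, Crabp1, Cyp26c1 and Rxrg had no counts in any library.

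**Figure D4:**
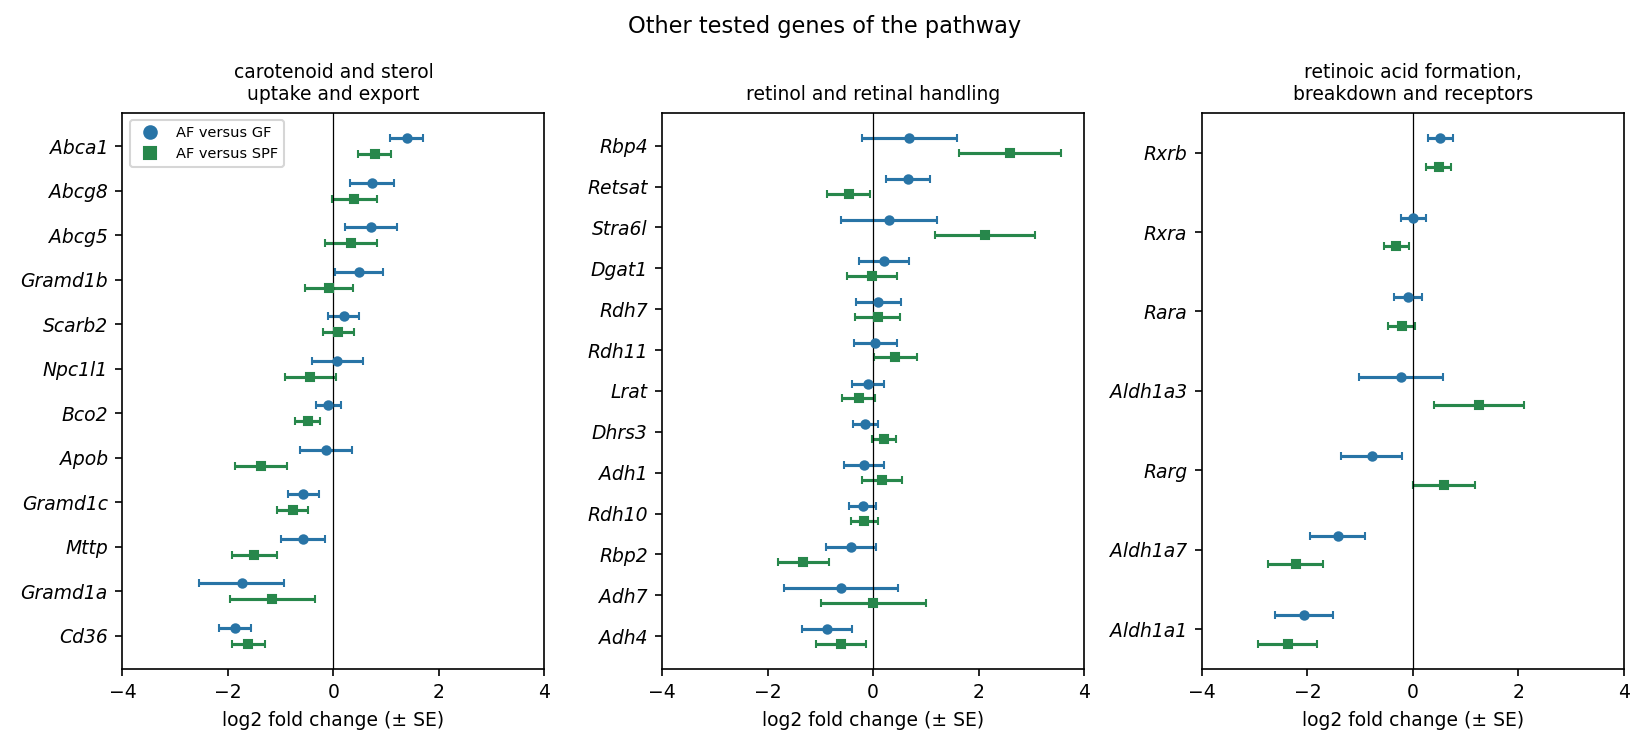
Log2 fold change (± SE) of tested pathway genes in AF versus GF (blue circles) and AF versus SPF (green squares), which share the AF libraries. Aldh1a1 and Cd36 have the lowest values in AF versus GF, at -2.06 and -1.87, and no gene of these lists comes near the 5.83 and 6.20 of Scarb1 and Bco1.

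Other transcription factors of the intestine were set beside Isx. All 15 listed were tested and edgeR called 0 in each comparison. At an unadjusted p below 0.05 there were 0 in AF versus GF, 2 (both lower) in AF versus SPF and 3 (all lower) in GF versus SPF. Over all tested genes the shares were 3.6%, 11.3% (6.52% lower) and 6.71% (3.51% lower) in the same order. The list of factors had median log2 fold changes of 0.12 in AF versus GF, -0.35 in AF versus SPF and -0.43 in GF versus SPF. Those of all genes were -0.02, 0.01 and 0.02. Cdx2, a homeobox factor of intestinal identity, was at 57.0 and 65.0 CPM in AF, 73.4 and 64.3 CPM in GF, and 89.1 and 92.1 CPM in SPF. Its AF and GF libraries overlapped, and the AF versus SPF value of -0.57 (SE 0.20) did not pass (edgeR adjusted p = 0.398). Nr1h4, the bile acid receptor, had -0.67 (SE 0.22; edgeR adjusted p = 0.389) in AF versus SPF. Onecut2 and Klf4 had 0.42 (SE 0.30) and 0.54 (SE 0.39) in AF versus GF, and Pdx1 and Gata4 had -1.27 (SE 0.35) and -0.73 (SE 0.25) in GF versus SPF, none past the edgeR test. Hnf4a was at 329 and 363 CPM in AF, 343 and 296 CPM in GF, and 427 and 412 CPM in SPF. Of 7 other polycystin genes 3 were tested and edgeR called none. Pkd1, the most abundant of them, was at 36.4 and 27.1 CPM in AF, 23.6 and 37.0 CPM in GF, and 22.2 and 24.8 CPM in SPF, with overlap between AF and GF. The low-level Pkd2l2 and Pkd2 had -1.15 (SE 0.70) and -0.42 (SE 0.62) in AF versus GF.

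The genes most like Isx and Bco1 across the 6 libraries were found by Pearson's r of log2 CPM. The search covered 8716 genes with a mean of at least 5 CPM. Isx itself passed that limit through its GF and SPF libraries alone. No r is given for Pkd1l2, which passed that limit through its AF libraries alone and was chosen for this contrast. The AF libraries lie apart from the rest for each of them, so r mostly reports that contrast, and it is given with no p. Among the highest for Isx were Anpep (0.996), Panx1 (0.995), Zfp217 (0.988) and Zxdc (0.987). Pkd1l2 aside, the lowest were Ptms (-0.979) and Pfkl (-0.978). Anpep, a brush-border peptidase, was at 925 and 748 CPM in AF, 3671 and 3677 CPM in GF, and 2990 and 3807 CPM in SPF, a log2 fold change of -2.14 in AF versus GF. The likeness is one of shape across the libraries rather than of size, since Zxdc had a value of -0.33 in the same comparison. For Bco1 the highest were Hint2 (0.998), S100a1 (0.985), Capn1 (0.983) and Ptms (0.980), and the lowest Enpp1 (-0.995), Zfx (-0.991) and Tspan31 (-0.989). Capn1, a calcium-dependent protease, was at 776 and 553 CPM in AF, 123 and 141 CPM in GF, and 115 and 154 CPM in SPF.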

How the data were processed

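RNA was sequenced from 6 libraries of sorted epithelial cells, 2 per group. Tools listed in the submitters' processing notes are STAR 2.5.2b, RSEM and edgeR 3.16.5, with the genome GRCm38/mm10. The sources used here do not give the RSEM version, annotation release or strand setting. Per the file headers, the authors deposited RSEM expected counts per gene, with no scaling between libraries, and TPM, scaled by effective length to a fixed total, together with transcript lengths in bases. Symbols (51633 of 51912 IDs matched) and 1-based coordinates came from a GENCODE annotation of GRCm38.

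Expected counts were rounded, 23.5% of those above 0 not being whole. edgeR 4.0.16 (R 4.3.3) fitted all 6 libraries with filterByExpr, TMM factors of 0.791 to 1.41 and the quasi-likelihood F test, with 3 residual and 3.08 prior degrees of freedom and a common biological coefficient of variation of 0.368. Genes were called at an adjusted p below 0.05. SE is the log2 fold change over the square root of F. Alternatives included DESeq2 1.42.0 and limma 3.58.1. The script was tested on simulated data.

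The members and lists were chosen with earlier results of these data known. Of each list and comparison, up to 6 genes past the threshold, or otherwise up to 2 with the smallest p, were to be named. Bco2, Lrat, Rbp4, Stra6l, Hnf4a, Gm20694 and the genes at 0 were named after their values were seen. Some genes that the rule names are not reported here.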

Additional observations from a re-analysis of the deposited data

How the results depend on the processing

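The direction of all 4 members in both comparisons with AF was the same under every alternative run. No paired analysis was possible because the groups share only replicate number 3.

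In AF versus GF the 2 genes called became 4 with library totals, 264 with no low-count filter, 1 with effective lengths, 8 with only the groups compared, 51 with DESeq2, and 9 and 5 with limma at pseudocounts of 1 and 0.1. The 2 members called became 4 with library totals, no filter or DESeq2 and 1 (Isx) with effective lengths. With limma at either pseudocount 3 were called, namely Isx, Bco1 and Scarb1. Pkd1l2 was thus not called with effective lengths or with limma. Of the other listed genes (93, counting pathway genes, transcription factors, polycystins and neighbours), 0 were called, against 4 with no filter and 2 with DESeq2. Isx moved to -6.62 (library totals) and -5.24 (limma, pseudocount 1), and Pkd1l2 to 9.73 (effective lengths), 2.70 and 5.68 (limma at 1 and 0.1).

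In AF versus SPF the 6 genes called became 804 with no filter, 2 with only the groups compared and 272 with DESeq2. The 2 members called became 4 with library totals, no filter or DESeq2, 1 (Isx) with effective lengths and 0 with only the groups compared. With limma at either pseudocount 3 were called, again Isx, Bco1 and Scarb1 and not Pkd1l2. Listed genes called were 5 with no filter and 4 with DESeq2. With limma at 1, Isx was -5.22, Bco1 6.56 and Pkd1l2 2.65, and Pkd1l2 was 5.37 at 0.1. Relative to brush-border markers, Isx was -5.65 and Bco1 8.02.

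In GF versus SPF the 2 genes called became 0 with library totals or only the groups compared, 484 with no filter, 80 with DESeq2, and 5 and 4 with limma. Listed genes called were 5 with no filter, of which Aacs is a neighbour of Scarb1 and Pdx1 a transcription factor. Isx was 0.57 relative to brush-border markers. Pkd1l2 was below the filter with only these groups.

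Leaving out each library in turn gave 0 to 9, 0 to 625 and 0 to 369 genes called, 0 to 3, 0 to 4 and 0 to 0 members, and 0 to 0, 0 to 7 and 0 to 3 listed genes, in AF versus GF, AF versus SPF and GF versus SPF. The 625 and 369 came without SPF replicate 3, as did all calls of listed genes. In AF versus SPF these were Rbp4 (5.43) and Stra6l (5.09), higher, and Cd36 (-1.92), Aldh1a1 (-2.92), Aldh1a7 (-2.79), Mttp (-1.87) and Gramd1c (-1.11), lower. In GF versus SPF they were Rbp4 (4.73) and Stra6l (4.79), higher, and Pdx1 (-1.65), lower. Without any single AF or GF library no member was called. Isx ranged over -6.60 to -5.94, -6.63 to -5.97 and -0.22 to 0.18 in the same order, Bco1 over 5.57 to 7.31, 6.73 to 7.999 and -0.070 to 1.79, Scarb1 over 5.31 to 6.61, 4.38 to 6.07 and -1.62 to 0.23, and Pkd1l2 over 8.72 to 9.52, 7.22 to 9.23 and -1.96 to 0.05. The cause of these moves was not tested. A group left with a lone library was assumed to vary like the others.

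With library totals the median log2 fold change of all genes moved to -0.38, -0.20 and 0.16 in the same order. With limma on TPM it moved to -0.36, -0.31 and 0.02 at a pseudocount of 1. At 0.1 it was -0.42, -0.36 and 0.03, so the limma values of the members hold this offset as well. Depth limits Pkd1l2 outside AF, at 1 to 3 counts a library.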
